A study of Mus musculus with 30 samples.

Results

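The change in gene expression between a primary mammary tumour and an established lung macro-metastasis was compared between hosts with and without lymphocytes. Of the 30 libraries of the series, the 20 taken from tumours and from macro-metastases (here macro-mets) enter the comparison, with 5 in each of the 4 groups. The BALB/c macro-mets came from lungs at day 21 (4 libraries) and day 23 (1 library), and the BALB/c tumours from the mammary fat pad at day 21 (2 libraries) and day 22 (3 libraries). The NSG macro-mets came from lungs at day 19 (4 libraries) and day 20 (1 library), and the 5 NSG tumours from the fat pad at day 10. All hosts were female and had received 4T1-tdTomato cells, a BALB/c mammary carcinoma line that carries a red fluorescent protein. The NSG mouse, of the NOD background, has no mature T, B or NK cells but keeps macrophages and neutrophils. Tumours grew from 200000 cells placed in the fat pad and macro-mets from 500000 cells injected into the tail vein, so organ, route and cell number change together between tumour and macro-met. The NSG tumours were taken 11 to 12 days earlier than the BALB/c tumours, so host and time cannot be told apart for tumours. Every library is bulk RNA of cells sorted as live, CD45-negative and tdTomato-positive. The labels do not say that the libraries of a group came from separate animals, so p-values measure the spread between these libraries.

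For each gene the value of interest is the macro-met minus tumour log2 fold change in BALB/c hosts, minus the same change in NSG hosts. The libraries of one host enter only that host's change, so the 2 changes share no sample. A gene is called host-dependent where this difference has an adjusted p under 0.05, and its change is called shared where it passed the same threshold in the same direction in both hosts. A shared change is called close where the 95% interval of the difference lies within 1 log2 unit of 0. Levels are given as CPM, the counts of a gene scaled to a common library size, which compare libraries but not genes of different length. Adjusted p-values are from edgeR's quasi-likelihood test with Benjamini-Hochberg adjustment over 17774 genes unless another method, filter or set of libraries is named, and ± after a log2 value is its standard error.

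Interferon gamma, which T and NK cells release, raises antigen presentation on tumour cells, and MHC class II in particular depends on it. Glucocorticoids act through a nuclear receptor that raises a small set of direct targets, among them Fkbp5, Tsc22d3 and Per1. Entry into mitosis and DNA replication are run by gene sets that are switched on together in dividing cells.

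Libraries held 29832098 to 65621525 counts. The keratin Krt8 measured 2176 to 3985 CPM and the epithelial adhesion molecule Epcam 132 to 748 CPM over the 20 libraries, and Ptprc, which encodes CD45, at most 6.62 CPM. Markers of skeletal muscle stood apart in a BALB/c tumour (replicate 4, 1040 CPM in sum, the other tumours of that host at most 80.9 CPM) and in an NSG macro-met (replicate 3, 409.5 CPM), and counts they move are also given without both. NSG tumour replicate 3 also stood apart, at 271.8 CPM against a group median of 62.3 CPM. Of 17 markers of T, B and NK cells, 15 stayed under 1 CPM in all 20 libraries. Macrophage and monocyte markers summed to 25.4 to 61.7 CPM in BALB/c macro-mets, 16.8 to 101 CPM in BALB/c tumours, 41.6 to 71.6 CPM in NSG macro-mets and 15.1 to 30.8 CPM in NSG tumours. Lung epithelial markers summed to 70.7 to 108 CPM in BALB/c macro-mets and 27.0 to 116 CPM in BALB/c tumours. The sums were 47.8 to 73.7 CPM in NSG macro-mets and 34.6 to 46.7 CPM in NSG tumours. The most abundant of these markers, at a mean of 4.78 log2 CPM, was called in neither host. Of the 14 tested, 8 rose and 0 fell in BALB/c macro-mets (19.6% and 18.2% of all genes), with a median of 3.29 log2 units. In NSG macro-mets 8 rose and 1 fell (16.9% and 13.6%), with a median of 2.87. Their part in the shared rises was not tested. In bulk RNA, fewer cells of a type and less RNA per cell cannot be told apart.

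The macro-met minus tumour change was higher in BALB/c than NSG hosts for 20 of 34 mitosis and 24 of 38 DNA replication genes. So it was for 8 of 26 immediate early genes, against 3.53% of all genes, and for the cytokines Csf3 and Lif. The change was lower in BALB/c hosts for 5 of 19 MHC class I genes (1.7% of all genes) and for Nos2. The glucocorticoid targets Fkbp5 and Per1 and the enzymes Hmox1 and Gstm1 rose in both hosts by close amounts. In both hosts 12 of 25 epithelial genes and 13 of 30 type I interferon genes fell (7.72% of all genes). The difference between hosts was called for 929 genes (5.23% of those tested), of which 627 (3.53%) were higher and 302 (1.7%) lower in BALB/c. Without the 2 muscle-rich libraries 852 genes were called, 633 higher and 219 lower, and without NSG tumour replicate 3 as well 890, 700 higher and 190 lower. DESeq2 called 1612, 869 higher and 743 lower. Of the 929 genes, 354 rose and 124 fell in BALB/c hosts with no call in NSG hosts, and 143 rose and 152 fell in NSG hosts with no call in BALB/c hosts. A further 67 rose in BALB/c and fell in NSG hosts, 15 did the reverse, 67 moved the same way in both by different amounts, and 7 had no call in either host.

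**Figure D1:**
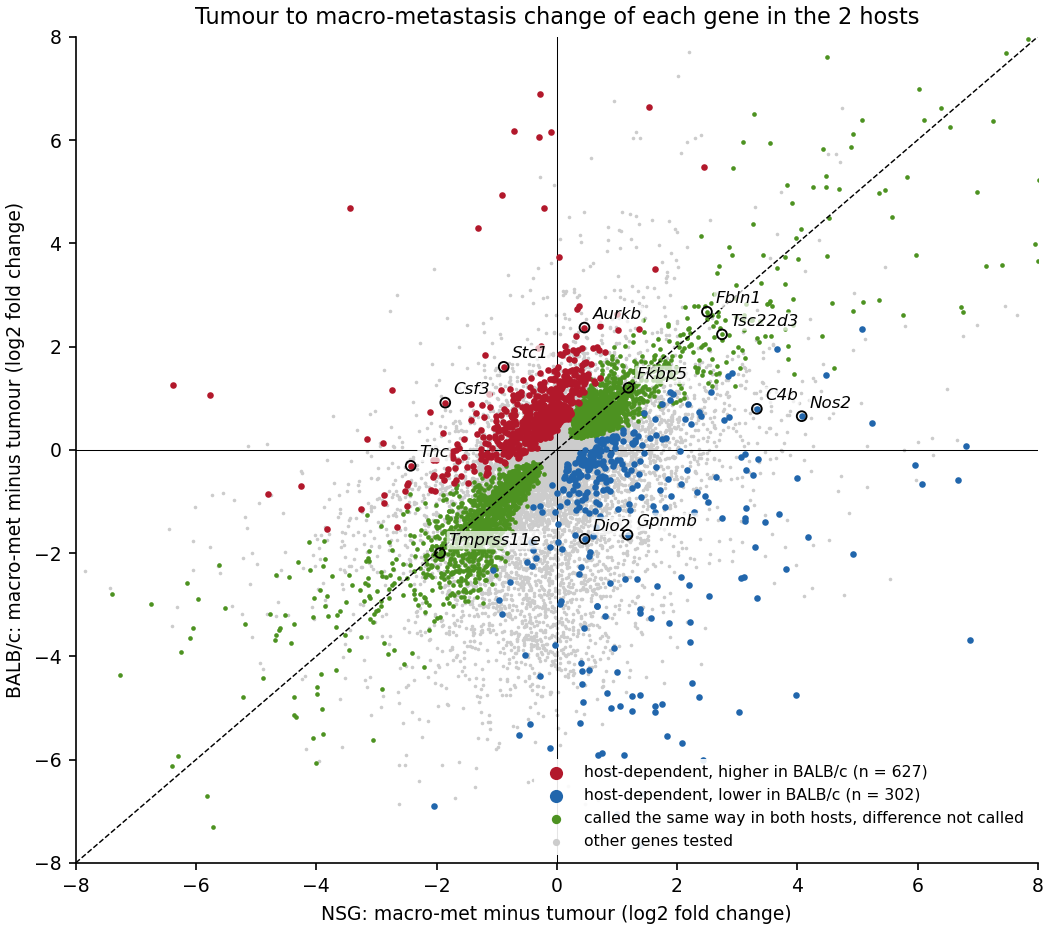
Each point is a gene, with its macro-met minus tumour log2 fold change in NSG hosts on the horizontal axis and in BALB/c hosts on the vertical axis, and the dashed line marks equal change. The 627 and 302 host-dependent genes lie on opposite sides of the line, the shared genes run along it, and 14 genes beyond 8 log2 units are outside the frame.

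There were 3180 genes called the same way in both hosts and 929 with a called host difference. These counts do not show which is more common, since the standard error of the difference holds the spread of both host changes. A further 4844 genes (27.3%) were called in 1 host with the host difference not called. In BALB/c hosts 6726 genes were called (37.8%, 3483 higher and 3243 lower in macro-mets, or 4267 and 2451 on log2(TPM + 1) values), and in NSG hosts 5415 (30.5%, 2996 higher and 2419 lower). The 3180 genes called the same way in both (17.9%) were 47.3% of the BALB/c calls and 58.7% of the NSG calls. They comprised 1807 rises (10.2%) and 1373 falls (7.72%), and 2058 of them (11.6% of the genes tested) were close. Another 1055 were neither close nor host-dependent, and the rest also had a called host difference. Across the 17774 genes, which are not independent of each other, the 2 changes had a Pearson r of 0.482.

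Host differences were compared at each site. Among the 929 host-dependent genes, the median size of the BALB/c minus NSG difference was 0.20 log2 units in macro-mets and 0.95 log2 units in tumours, against 0.24 and 0.41 log2 units over all genes tested. The host difference was called in macro-mets for 67 of the 929 genes (2.64% of all genes, 470 genes) and in tumours for 818 (23.6% of all genes, 4188 genes). The interaction is the host difference in macro-mets minus that in tumours, so choosing genes by it also bears on these counts and on their directions, which are given as a description. Of the 627 genes with the higher change in BALB/c hosts, 576 were lower in BALB/c than in NSG tumours (12.6% of all genes) and 2 were higher there (11%). Of the 302 with the lower change, 240 were higher in BALB/c than in NSG tumours. The part of the tumours' age in these differences cannot be told apart from that of the host. Mitochondrial transcripts took 0.862% to 1.12% of counts in BALB/c macro-mets, 2.05% to 3.84% in BALB/c tumours, 0.669% to 1.03% in NSG macro-mets and 1.34% to 1.91% in NSG tumours. For each library, the departure of each gene's log2 CPM from its mean over all 30 libraries was rank correlated with GC content. This correlation lay between 0.056 and 0.39 in BALB/c macro-mets and between -0.27 and -0.11 in BALB/c tumours. It lay between 0.19 and 0.40 in NSG macro-mets and -0.20 and 0.035 in NSG tumours. Both measures separated macro-mets from tumours in each host, and the mitochondrial share also separated BALB/c from NSG tumours; their part in the results was not tested beyond the GC and length offset.

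**Figure D2:**
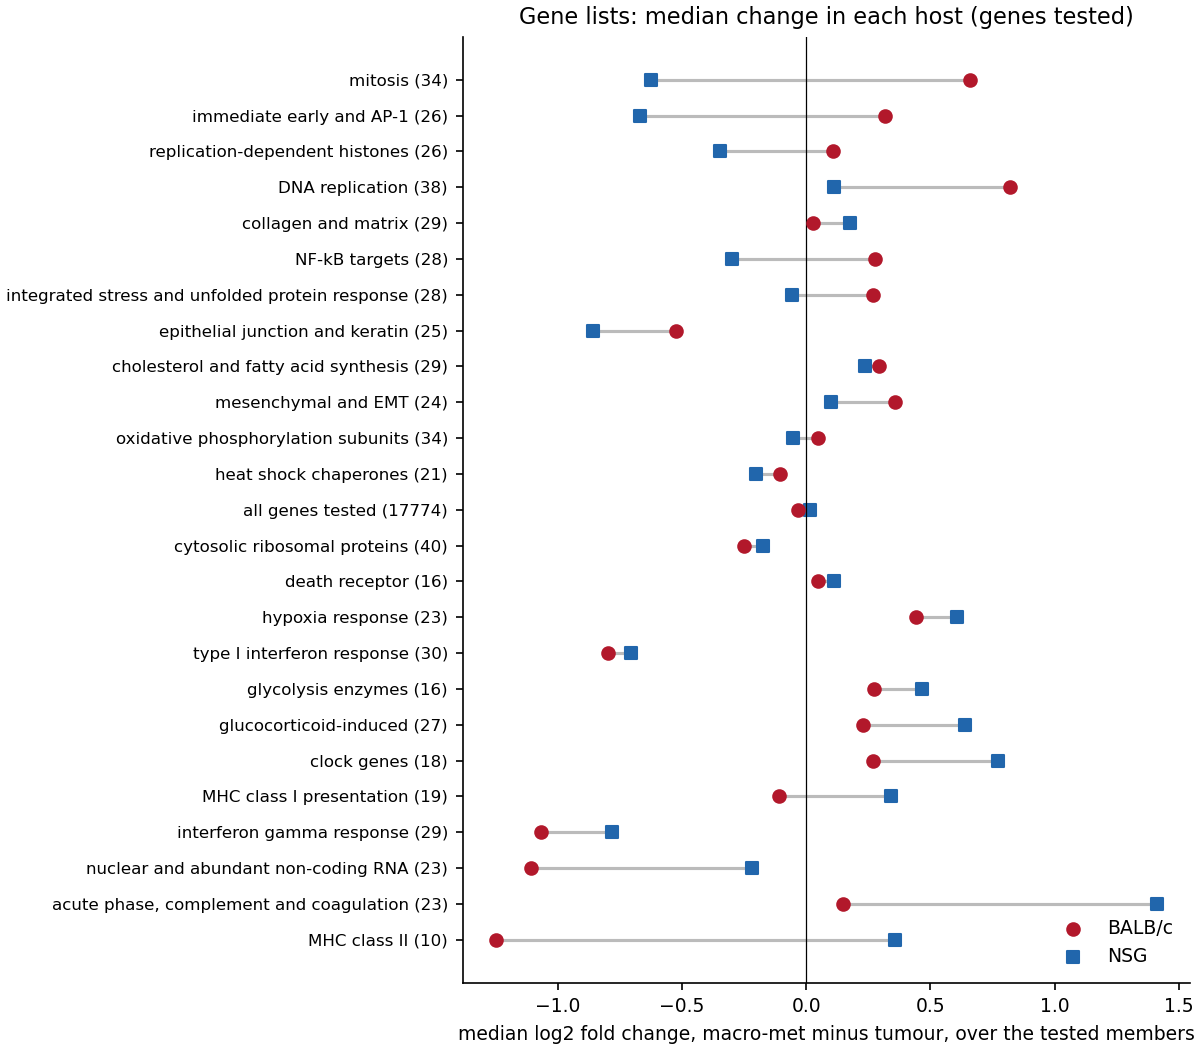
Each row is a gene list with the number of its members tested, and the circle and the square give the median macro-met minus tumour log2 fold change over those members in BALB/c and in NSG hosts. Medians lie above 0 in BALB/c and below 0 in NSG hosts for mitosis, immediate early genes, NF-kB targets, histones, integrated stress and oxidative phosphorylation. MHC class I and class II are the reverse. The interferon, epithelial, ribosomal, heat shock and non-coding RNA lists are below 0 in both.

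The mitosis and DNA replication lists had the largest shares of host-dependent members of all lists. Of 34 mitosis genes, 20 had a higher change in BALB/c hosts and 0 a lower one, against 3.53% and 1.7% of all genes, and the median difference was 1.14 log2 units (-0.06 over all genes). In BALB/c macro-mets 19 of the 34 rose and 4 fell (2 without BALB/c macro-met replicate 2, 1 under the GC and length offset), against 19.6% and 18.2% of all genes. In NSG macro-mets 0 rose and 17 fell, against 16.9% and 13.6%. Of 38 DNA replication genes, 24 had a higher change in BALB/c hosts and 0 a lower one (median 0.73). There 32 rose and 2 fell in BALB/c macro-mets, while 6 rose and 4 fell in NSG macro-mets. The interaction counts were 18 to 23 for mitosis and 21 to 26 for replication when any 1 library was left out, and 18 and 25 without both muscle-rich libraries. The 0 counts of the interaction were also 0 at an unadjusted p under 0.05, with DESeq2 and with limma voom, while in NSG macro-mets 1 mitosis gene was higher at an unadjusted p under 0.05, 0 with DESeq2 and 1 with limma voom or without BALB/c tumour replicate 5.

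Aurkb (chr11:69045647-69051664), the kinase of the chromosomal passenger complex that corrects chromosome attachment, had the largest difference of the mitosis list. Aurkb measured 66.3, 61.2, 65.8, 62.2 and 66.0 CPM in BALB/c macro-mets, against 19.5, 9.33, 15.3, 12.1 and 6.15 CPM in BALB/c tumours. In NSG hosts it measured 70.9, 66.0, 65.5, 86.3 and 71.2 CPM in macro-mets and 44.7, 55.7, 39.1, 60.0 and 62.1 CPM in tumours. The BALB/c tumours were lowest with no overlap with any other group, and NSG macro-mets lay above NSG tumours without overlap. The change was 2.37 ± 0.19 in BALB/c and 0.46 ± 0.19 in NSG hosts (adjusted p = 0.0661), a difference of 1.91 ± 0.27 log2 units (adjusted p = 9.70e-05).

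Cdk1 (chr10:69335146-69352938), the kinase that starts mitosis, measured 93.1, 98.4, 91.3, 86.5 and 96.1 CPM in BALB/c macro-mets, against 45.2, 30.2, 40.0, 66.6 and 28.1 CPM in BALB/c tumours. The NSG values were 106, 108, 109, 111 and 112 CPM in macro-mets and 129.9, 131, 109, 112 and 118 CPM in tumours. BALB/c groups did not overlap and NSG groups did. Cdk1 rose by 1.15 ± 0.15 in BALB/c hosts and had a value of -0.14 ± 0.15 in NSG hosts (adjusted p = 0.536). Its difference was 1.28 ± 0.21 (adjusted p = 0.000405). Prc1 (chr7:80294450-80316259), which bundles the microtubules of the dividing spindle, went opposite ways in the hosts. It measured 39.5, 39.1, 41.8, 56.8 and 40.4 CPM in BALB/c macro-mets and 28.0, 17.7, 29.8, 21.1 and 11.8 CPM in BALB/c tumours, a rise of 1.01 ± 0.18. It measured 42.6, 48.8, 28.4, 37.9 and 49.3 CPM in NSG macro-mets and 60.7, 79.0, 57.2, 62.9 and 63.8 CPM in NSG tumours, a change of -0.64 ± 0.18 that passed the test (adjusted p = 0.00743). Neither pair of groups overlapped, and the difference was 1.65 ± 0.26 (adjusted p = 0.000227). Under an offset for GC content and length the NSG fall of Prc1 was not called (adjusted p = 0.170).

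Mad2l1, the spindle checkpoint protein, differed by 1.23 ± 0.19 (adjusted p = 0.000227), with a rise of 0.89 in BALB/c hosts and a value of -0.35 in NSG hosts. Fam83d, which helps align chromosomes on the spindle, was outside the list and had a larger difference, 2.40 ± 0.31 (adjusted p = 2.92e-05). It averaged 22.3 ± 2.34 CPM in BALB/c macro-mets and 3.36 ± 1.51 CPM in BALB/c tumours, and 23.9 ± 3.10 CPM in NSG macro-mets and 18.9 ± 4.28 CPM in NSG tumours (SD, n = 5 each). Members of the mitosis list that stood apart, named after their values were seen, were Smc2 and Smc4, the condensin ATPases, and the kinetochore motor Cenpe, which fell in both hosts. Smc4 fell by 1.92 log2 units in BALB/c and by 1.67 in NSG hosts.

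Among replication genes, Mcm10, which loads onto origins as the helicase fires, averaged 31.7 ± 1.96 CPM in BALB/c macro-mets and 11.5 ± 2.40 CPM in BALB/c tumours, and 34.9 ± 1.22 CPM in NSG macro-mets and 28.5 ± 6.2 CPM in NSG tumours (SD, n = 5 each). Its difference was 1.17 ± 0.19 (adjusted p = 0.000479). Cdc45, a part of the active helicase, differed by 1.14 ± 0.19 (adjusted p = 0.000405), with a rise in BALB/c hosts of 1.22 and a value of 0.087 in NSG hosts. Tyms, which makes thymidylate, rose by 0.72 in BALB/c hosts and had a called change of -0.50 in NSG hosts. Other members changed alike in both hosts. The origin licensing factor Cdt1 rose by 0.90 in BALB/c and 0.61 in NSG hosts, the NSG rise not called under the GC and length offset (adjusted p = 0.0974) or without both muscle-rich libraries and NSG tumour replicate 3 (adjusted p = 0.0705). Rfc1, the large subunit of the clamp loader, had called changes of -1.08 in BALB/c and -1.20 in NSG hosts.

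The host difference of these 2 lists was examined at each site. With edgeR it was called in macro-mets for 0 of 34 mitosis genes and 0 of 38 replication genes. Over all genes 2.64% were called there, and 0 in lists of this size is near that share. At an unadjusted p under 0.05 there were 1 and 4 (2757 of all 17774 genes), and no other tool was run on it. In tumours the host difference was called for 23 mitosis and 31 replication genes, each lower in BALB/c than in NSG tumours (12.6% of all genes). The median BALB/c minus NSG difference of the mitosis list was 0.097 log2 units in macro-mets and -1.01 in tumours. The NSG tumours were sampled at day 10 and the BALB/c tumours at days 21 and 22.

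**Figure D3:**
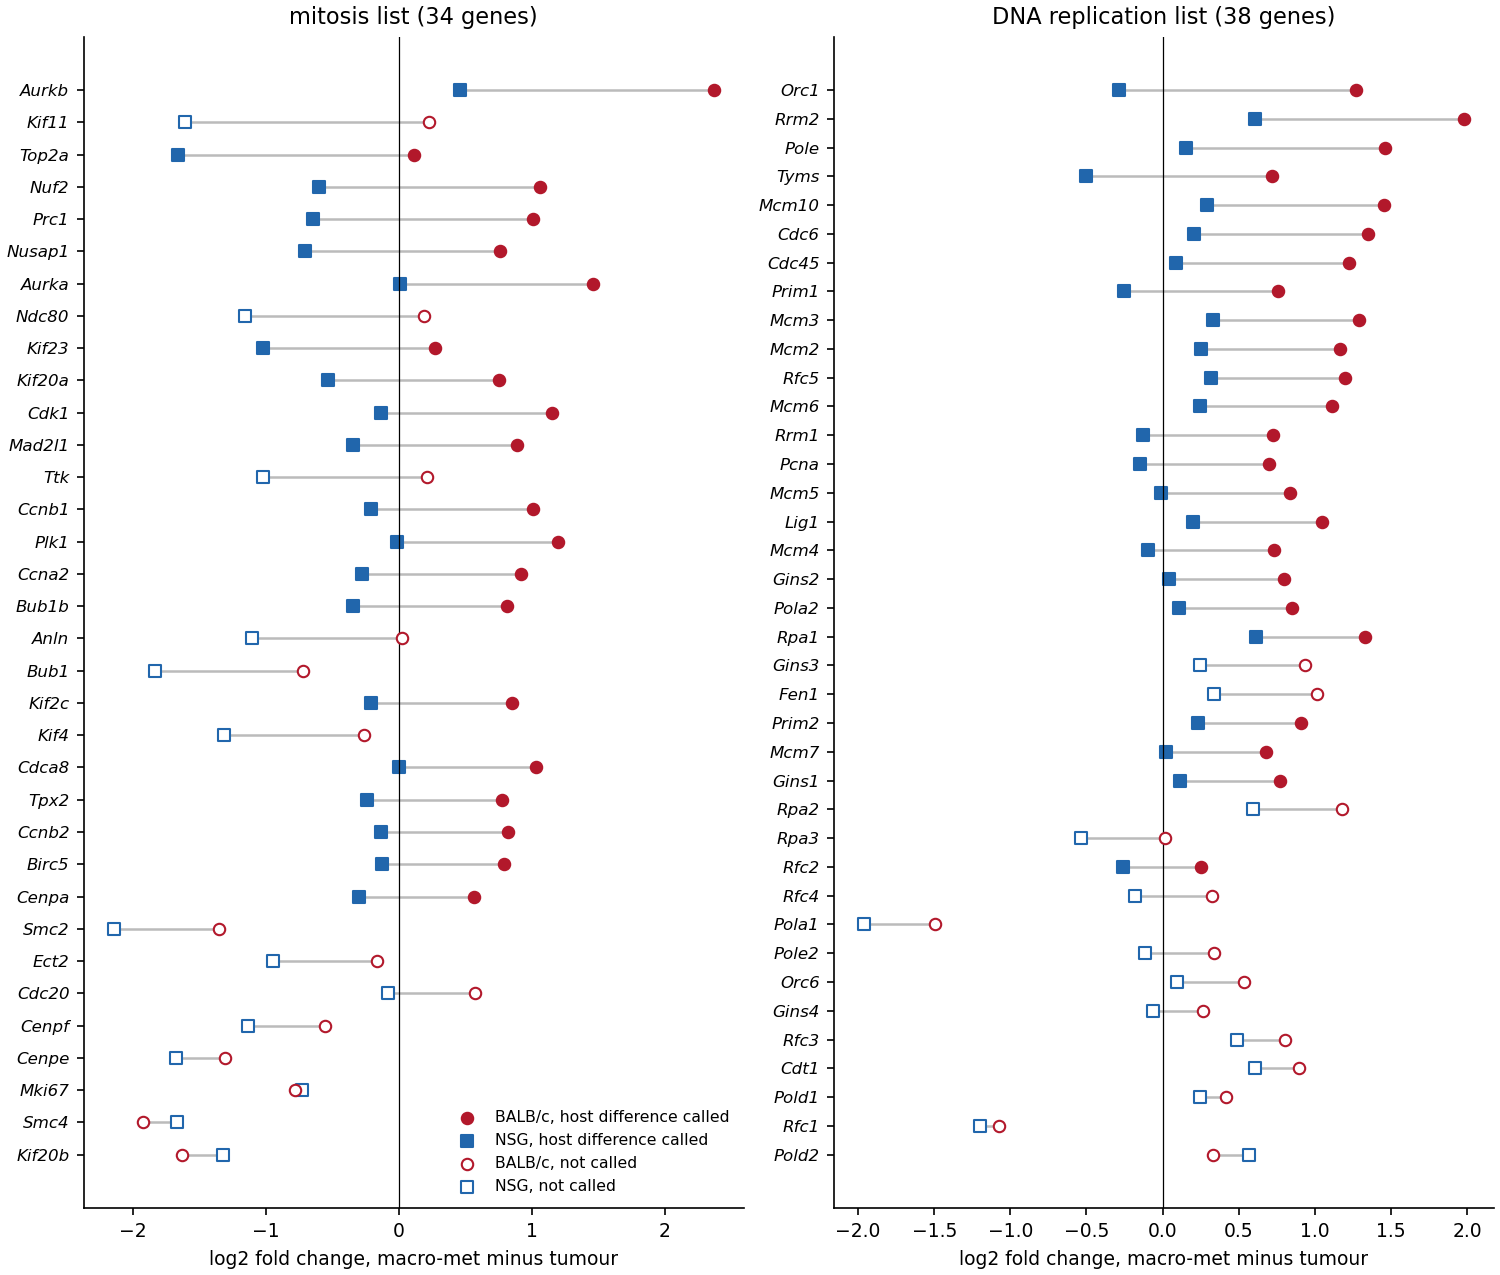
Macro-met minus tumour log2 fold change of each tested gene of the mitosis list (left) and the DNA replication list (right), with circles for BALB/c and squares for NSG hosts, filled where the host difference was called. In 20 of 34 mitosis genes and 24 of 38 replication genes the filled circle lies to the right of its square, and none of the filled pairs is the other way round.

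The promoters of Prc1 and Cdk1 are shown because they hold the cell cycle homology region, a short element of mitotic promoters known to be bound by the DREAM complex. Its letters TTTGAA were searched on both strands of RefSeq promoters (GRCm38.p6, 250 bases before to 50 after the start, the first listed for each gene). They occurred in 22 of the 29 mitosis genes with a promoter, against 18.1% of all 27025 promoters and 12.3% of those of genes tested. They occurred in 11 of 16 host-dependent mitosis genes and in 11 of 13 others, so the share was no higher among the host-dependent members. Of the 31 replication genes with a promoter, 4 held them (12.9%, near the 12.3% of genes tested). Capitals mark the matches on either strand.
Prc1, chr7:80294201-80294500, plus strand: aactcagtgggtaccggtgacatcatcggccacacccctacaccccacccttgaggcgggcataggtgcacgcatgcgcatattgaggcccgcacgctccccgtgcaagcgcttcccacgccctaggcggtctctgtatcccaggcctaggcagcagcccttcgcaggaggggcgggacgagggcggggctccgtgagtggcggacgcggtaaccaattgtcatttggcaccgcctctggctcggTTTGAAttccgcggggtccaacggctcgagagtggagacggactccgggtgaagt
Cdk1, chr10:69352863-69353162, minus strand: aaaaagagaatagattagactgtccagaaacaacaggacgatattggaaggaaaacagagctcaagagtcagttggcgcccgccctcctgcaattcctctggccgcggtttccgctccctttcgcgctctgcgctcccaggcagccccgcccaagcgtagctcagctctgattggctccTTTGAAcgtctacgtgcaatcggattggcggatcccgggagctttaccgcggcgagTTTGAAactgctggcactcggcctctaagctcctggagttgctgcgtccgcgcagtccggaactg
Prc1 holds 1 match and Cdk1 holds 2.

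Some signal response genes and secreted factors also had a higher change in BALB/c hosts. Of 26 immediate early and AP-1 genes, which answer growth factor and stress signals within minutes, 8 had a higher change in BALB/c hosts and 0 a lower one (3.53% and 1.7% of all genes), with a median of 1.02. In BALB/c macro-mets 10 rose and 3 fell (1 without BALB/c tumour replicate 4). In NSG macro-mets 4 rose (1 to 4 with 1 library left out, 0 under the GC and length offset) and 13 fell. Over all genes 19.6% rose and 18.2% fell in BALB/c macro-mets, and 16.9% rose and 13.6% fell in NSG macro-mets. The count of 8 was 5 without any 1 of 7 libraries (BALB/c macro-met replicate 2, BALB/c tumour replicate 1, NSG macro-met replicate 1, 4 or 5, NSG tumour replicate 4 or 5) and 12 without both muscle-rich libraries. The 0 was also 0 at an unadjusted p under 0.05, with DESeq2 and with limma voom. Of 28 NF-kB targets 5 were higher and 0 lower (3 at an unadjusted p under 0.05, 1 with DESeq2, 0 with limma voom, 1 without BALB/c macro-met replicate 4), and 10 were higher without BALB/c tumour replicate 4. Of the NF-kB targets 10 rose and 3 fell in BALB/c hosts (5 without NSG macro-met replicate 3), and in NSG hosts 3 rose (6 under the GC and length offset) and 7 fell.

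Csf3 (chr11:98701263-98703629), the cytokine G-CSF that drives neutrophil production, had the largest positive difference of the host-dependent genes that passed the naming filters given below. Csf3 measured 42.9, 78.4, 93.7, 157 and 127 CPM in BALB/c macro-mets, against 68.2, 65.8, 43.3, 47.5 and 40.3 CPM in BALB/c tumours. In NSG hosts Csf3 measured 48.0, 59.0, 69.3, 80.4 and 48.7 CPM in macro-mets, against 196, 182, 241, 238 and 247 CPM in tumours. The BALB/c groups overlapped and the NSG groups did not, with the NSG tumours highest of all. Csf3 rose by 0.91 ± 0.26 in BALB/c (adjusted p = 0.00748) and changed by -1.85 ± 0.26 in NSG hosts (adjusted p = 8.67e-06), a difference of 2.77 ± 0.37 (adjusted p = 8.46e-05).

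Stc1 (chr14:69029238-69041804), a secreted glycoprotein hormone, measured 77.0, 52.3, 71.4, 105 and 63.0 CPM in BALB/c macro-mets and 20.9, 22.7, 23.9, 39.6 and 13.9 CPM in BALB/c tumours. In NSG macro-mets Stc1 measured 56.3, 68.1, 22.9, 42.2 and 42.3 CPM, against 81.2, 87.0, 86.3, 90.0 and 83.0 CPM in NSG tumours. It was higher in every BALB/c macro-met than in any BALB/c tumour, and lower in every NSG macro-met than in any NSG tumour. Its difference was 2.49 ± 0.35 (adjusted p = 9.82e-05), and under the GC and length offset the NSG change was not called (adjusted p = 0.0563). Lif, a cytokine of the interleukin 6 family, averaged 145 ± 70.1 CPM in BALB/c macro-mets and 79.1 ± 32.6 CPM in BALB/c tumours. In NSG hosts it averaged 168 ± 52.1 CPM in macro-mets and 452 ± 99.8 CPM in tumours (SD, n = 5 each). The difference of Lif was 2.31 ± 0.43 (adjusted p = 0.00167). Its rise in BALB/c hosts was not called without BALB/c macro-met replicate 3, 4 or 5 or BALB/c tumour replicate 1 or 2 (adjusted p 0.0532 to 0.130).

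Cyr61, a matricellular protein and a target of YAP, differed by 2.29 ± 0.32 (adjusted p = 9.70e-05), with a rise of 1.98 in BALB/c hosts and a value of -0.31 in NSG hosts, which did not pass. Rasd1, a Ras-like protein first known as induced by dexamethasone, differed by 2.28 ± 0.44 (adjusted p = 0.00259), with a rise of 2.02 in BALB/c hosts and a value of -0.26 in NSG hosts. Gadd45g, a growth arrest and stress gene, had called changes of 1.08 in BALB/c and -1.13 in NSG hosts. The BALB/c call of Gadd45g rested on replicate 1 of the macro-mets, at 272.6 CPM, and was not made without BALB/c macro-met replicate 1 (adjusted p 0.459).

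Dusp5 and Ier3, both induced by ERK signalling, and the AP-1 subunit Fosl1 went opposite ways in the hosts. Dusp5, a phosphatase of nuclear ERK, measured 30.1, 48.3, 48.8, 47.0 and 38.9 CPM in BALB/c macro-mets and 19.7, 14.9, 15.9, 22.9 and 21.1 CPM in BALB/c tumours. It measured 40.3, 41.8, 74.7, 64.5 and 35.4 CPM in NSG macro-mets and 74.3, 76.4, 74.9, 89.8 and 123 CPM in NSG tumours. The BALB/c groups of Dusp5 did not overlap and the NSG groups did. Its called changes were 1.17 ± 0.19 in BALB/c and -0.77 ± 0.19 in NSG hosts, a difference of 1.95 ± 0.27 (adjusted p = 9.70e-05). Ier3 differed by 1.66 ± 0.34 (adjusted p = 0.00367), and its rise in BALB/c hosts was not called without BALB/c macro-met replicate 2, 3, 4 or 5 or BALB/c tumour replicate 1 or 2 (adjusted p 0.0575 to 0.106). Fosl1 differed by 1.78 ± 0.38 (adjusted p = 0.00507), and its change in NSG hosts was not called without NSG macro-met replicate 1, 2 or 5 or NSG tumour replicate 5 (adjusted p 0.0678 to 0.0902).

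Myc, the growth transcription factor, averaged 185 ± 16.9 CPM in BALB/c macro-mets and 59.2 ± 16.3 CPM in BALB/c tumours, and 161 ± 25.6 CPM in NSG macro-mets and 121 ± 14.5 CPM in NSG tumours (SD, n = 5 each). It rose by 1.64 ± 0.15 in BALB/c hosts, 1.22 ± 0.21 more than in NSG hosts (adjusted p = 0.000804). Its NSG rise of 0.42 was not called without BALB/c macro-met replicate 1, 2, 3, 4 or 5, BALB/c tumour replicate 1 or 3, NSG macro-met replicate 1, 4 or 5 or NSG tumour replicate 1, 2, 3 or 4 (adjusted p 0.0600 to 0.177). Cdkn1a (chr17:29090976-29100727), the cell cycle inhibitor p21, went opposite ways as well. It measured 18.2, 20.1, 17.9, 25.8 and 20.7 CPM in BALB/c macro-mets and 13.0, 10.1, 12.4, 16.6 and 10.7 CPM in BALB/c tumours. In NSG macro-mets it measured 16.7, 18.0, 30.3, 29.5 and 13.4 CPM, against 52.3, 52.1, 48.6, 53.1 and 66.4 CPM in NSG tumours. Neither pair overlapped, and the difference was 2.04 ± 0.26 (adjusted p = 2.92e-05). The difference of this inhibitor had the same sign as those of the mitosis genes.

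Of the NF-kB targets, the inhibitors Nfkbie and Tnfaip3 had called changes of -1.07 and -1.63 in NSG hosts and values of 0.039 and 0.028 in BALB/c hosts. Tnfaip3 averaged 89.3 ± 40.1 CPM in BALB/c macro-mets and 87.6 ± 40.8 CPM in BALB/c tumours, and 194 ± 77.7 CPM in NSG macro-mets and 599 ± 126 CPM in NSG tumours (SD, n = 5 each). Its difference of 1.65 ± 0.44 (adjusted p = 0.0268) was not called without BALB/c macro-met replicate 4 (adjusted p 0.0649). Nor was it called with only the 20 libraries fitted (adjusted p = 0.0758) or with genes of low counts kept in (adjusted p = 0.0790). Icam1, an adhesion molecule of the same list, was shared and close, with rises of 1.22 in BALB/c and 1.23 in NSG hosts.

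**Figure D4:**
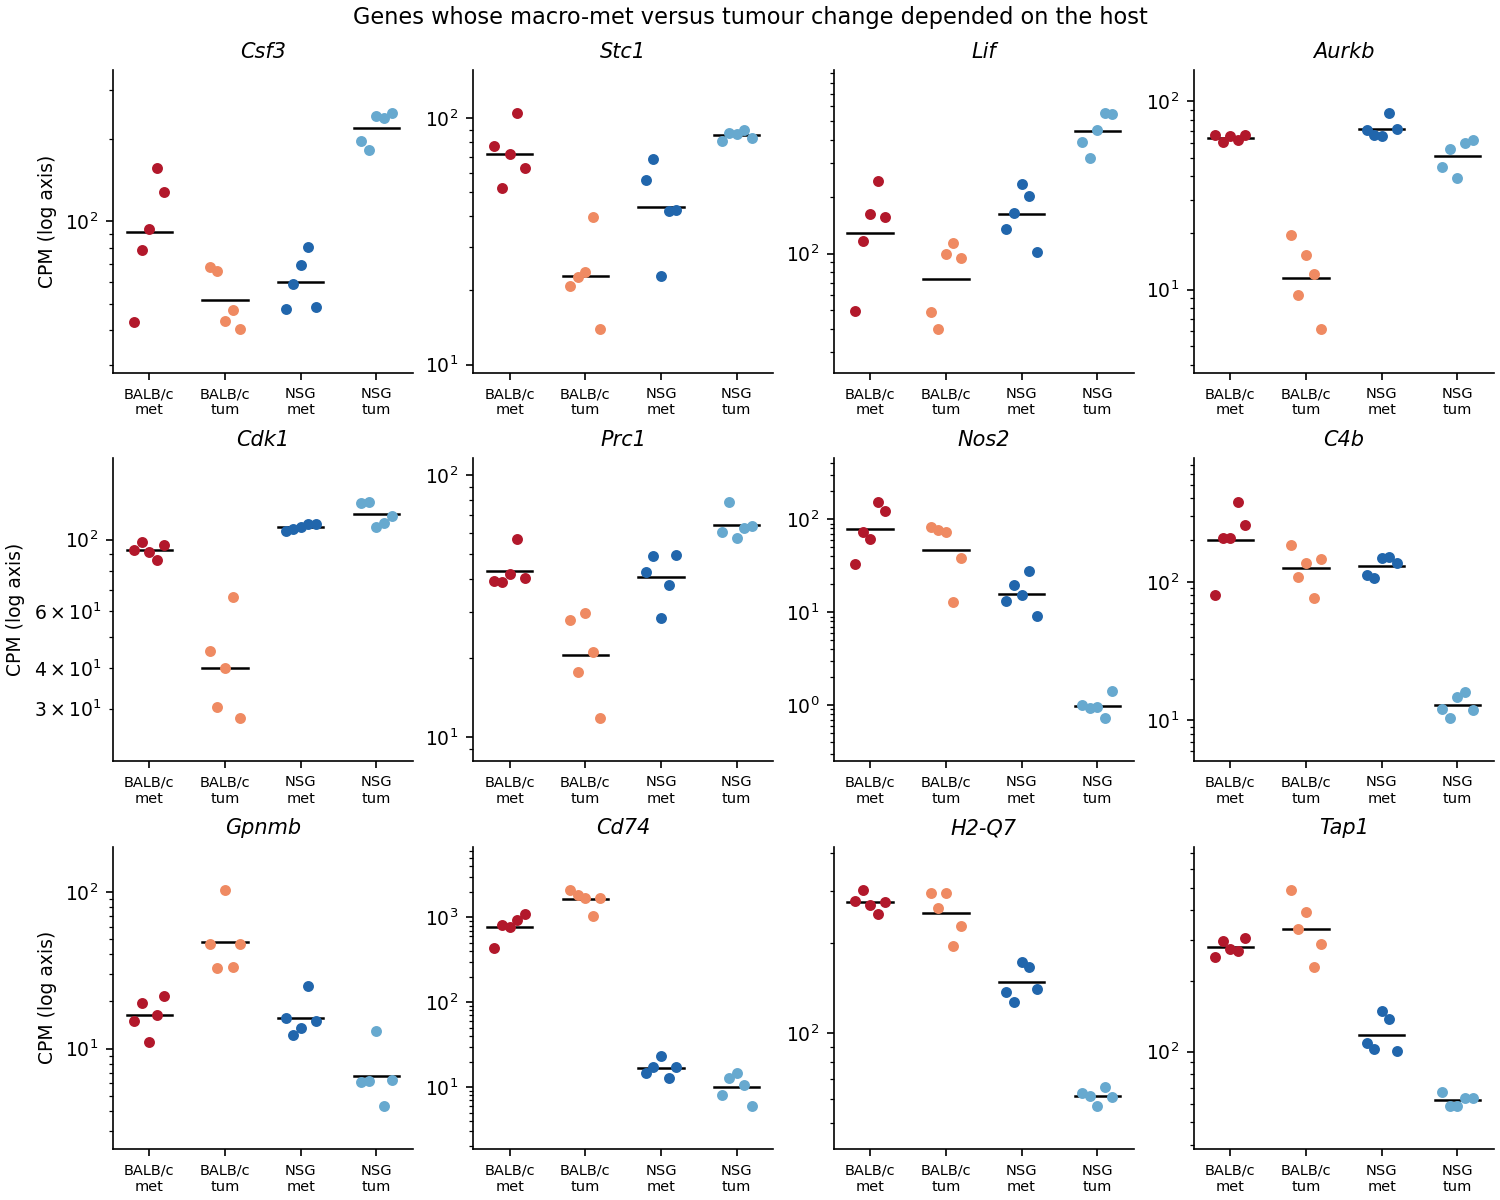
CPM on a log axis for 12 host-dependent genes, 1 point per library in replicate order, with the geometric mean of each group of 5 as a bar, for macro-mets (met) and tumours (tum) of BALB/c and NSG hosts. By geometric mean the BALB/c tumours are lowest for Aurkb, Cdk1 and Prc1, and the NSG tumours are highest for Csf3 and Lif and lowest for Nos2, C4b, H2-Q7 and Tap1.

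Matrix, protease and metabolic genes with a higher change in BALB/c hosts differed in which host moved. Tnc, a matrix glycoprotein of remodelling tissue, averaged 24.0 ± 4.46 CPM in BALB/c macro-mets and 29.7 ± 9.16 CPM in BALB/c tumours (SD, n = 5 each), with no call. In NSG hosts Tnc measured 13.6, 16.1, 19.1, 9.76 and 13.1 CPM in macro-mets, against 78.3, 62.4, 59.8, 79.0 and 107 CPM in tumours. The NSG groups did not overlap, the change there was -2.43 ± 0.21 (adjusted p = 5.11e-09), and the difference between hosts was 2.12 ± 0.30 (adjusted p = 9.70e-05). Mmp9, the gelatinase B, fell in both hosts, by 1.04 in BALB/c and by 2.87 in NSG hosts, a difference of 1.83 ± 0.34 (adjusted p = 0.00161). Mmp14, the membrane-type protease that activates other metalloproteases, had called changes of 0.38 in BALB/c and -0.49 in NSG hosts, and the BALB/c change was not called under the GC and length offset (adjusted p = 0.492). Plau, the urokinase, differed by 1.35 ± 0.25 (adjusted p = 0.00158) and its receptor Plaur by 1.11 ± 0.22 (adjusted p = 0.00208). Plau had its call in NSG hosts (-0.98) and Plaur in BALB/c hosts (1.09).

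Vegfa, the endothelial growth factor, rose by 1.03 ± 0.16 in BALB/c hosts and had a value of -0.23 ± 0.16 in NSG hosts, a difference of 1.26 ± 0.23 (adjusted p = 0.00104). With edgeR it was the 1 gene of 23 in the hypoxia list with a higher change in BALB/c hosts (2 without NSG macro-met replicate 3), and 0 had a lower one (5 at an unadjusted p under 0.05, 2 with DESeq2, 0 with limma voom, 1 without BALB/c tumour replicate 3 or 4). Of 28 genes of the integrated stress and unfolded protein response, 6 had a higher and 1 a lower change in BALB/c hosts (3.53% and 1.7% of all genes). Atf4, the transcription factor of that response, rose by 0.56 in BALB/c hosts and had a value of -0.30 in NSG hosts, a difference of 0.86 ± 0.21 (adjusted p = 0.0144). Its target Psat1, an enzyme of serine synthesis, rose by 1.41 in BALB/c hosts and differed by 1.05 ± 0.20 (adjusted p = 0.00191). Acaca, the first enzyme of fatty acid synthesis, had a called change of -0.67 in NSG hosts and differed by 0.94 ± 0.20 (adjusted p = 0.00402). Sgk1 and Errfi1, both induced by glucocorticoids and by growth factors, differed by 1.23 ± 0.30 and 1.02 ± 0.21 (adjusted p = 0.0135 and 0.00404), Sgk1 not with genes of low counts kept in (adjusted p = 0.0513). For Errfi1 the changes were opposite, 0.51 in BALB/c and -0.52 in NSG hosts, both called, the second not on log2(TPM + 1) values (adjusted p = 0.0530).

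Among the genes with the lower change in BALB/c hosts were Nos2 and C4b, whose levels were lowest in NSG tumours. Nos2 (chr11:78920787-78960254), the inducible nitric oxide synthase, had the most negative difference of the host-dependent genes that passed the naming filters given below. In BALB/c hosts Nos2 measured 33.3, 73.5, 61.1, 155 and 123 CPM in macro-mets and 83.3, 76.2, 72.8, 13.0 and 38.6 CPM in tumours. In NSG hosts Nos2 measured 13.2, 19.8, 15.4, 27.5 and 9.04 CPM in macro-mets, against 0.997, 0.931, 0.949, 0.736 and 1.42 CPM in tumours. The NSG tumours were all below 1.5 CPM, the BALB/c groups overlapped, and the rise in NSG hosts was 4.07 ± 0.53 (adjusted p = 4.68e-06). The difference was -3.42 ± 0.70 (adjusted p = 0.00436), which limma voom did not call (adjusted p = 0.222). C4b (chr17:34728380-34743882), a complement component, showed the same pattern. It measured 80.2, 207, 205, 379 and 258 CPM in BALB/c macro-mets and 185, 109, 136, 76.9 and 145 CPM in BALB/c tumours. It measured 113, 107, 148, 151 and 136 CPM in NSG macro-mets and 12.0, 10.5, 14.7, 16.1 and 11.8 CPM in NSG tumours, a rise of 3.33 ± 0.33 (adjusted p = 1.20e-07). Every NSG tumour was below every other library of the 20, and the difference was -2.53 ± 0.46 (adjusted p = 0.00148).

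Gpnmb, a membrane glycoprotein of lysosome-rich cells and of metastatic breast cancer, went opposite ways. It measured 15.0, 19.7, 10.9, 16.4 and 21.6 CPM in BALB/c macro-mets and 46.7, 32.8, 103, 33.1 and 46.3 CPM in BALB/c tumours. It measured 15.6, 12.2, 13.6, 25.0 and 14.9 CPM in NSG macro-mets and 6.09, 6.25, 12.9, 4.32 and 6.29 CPM in NSG tumours. It was lower in every BALB/c macro-met than in any BALB/c tumour, while in NSG hosts the groups overlapped by 1 tumour, and the difference was -2.82 ± 0.48 (adjusted p = 0.000804). Macrophages express Gpnmb. Of 14 macrophage markers tested, 1 rose and 2 fell in BALB/c hosts (19.6% and 18.2% of all genes). In NSG hosts 4 rose and 0 fell (16.9% and 13.6%). None of the 14 markers was at 0 in all 20 libraries, and without both muscle-rich libraries 0 fell in BALB/c and 1 in NSG hosts. Their part in the result was not tested. Dio2, which activates thyroid hormone, had a called change of -1.73 ± 0.34 in BALB/c hosts and a value of 0.46 in NSG hosts, a difference of -2.19 ± 0.48 (adjusted p = 0.00740). Col3a1, a fibrillar collagen made by fibroblasts, differed by -2.77 ± 0.74 (adjusted p = 0.0293), and this was not called without BALB/c macro-met replicate 1 or 2, BALB/c tumour replicate 4, NSG macro-met replicate 3 or NSG tumour replicate 1, 4 or 5 (adjusted p 0.0523 to 0.0803) or without both muscle-rich libraries (-1.55). Sectm1b, a small secreted and membrane protein, differed by -2.24 ± 0.62 (adjusted p = 0.0324), a call lost without BALB/c macro-met replicate 1, 2 or 3, BALB/c tumour replicate 2 or 5, NSG macro-met replicate 2, 4 or 5 or NSG tumour replicate 1, 2 or 5 (adjusted p 0.0504 to 0.0774).

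Aldoc, a glycolytic aldolase that responds to hypoxia, rose by 1.35 ± 0.19 in NSG hosts and had a value of 0.27 ± 0.19 in BALB/c hosts (adjusted p of the difference = 0.0132). Bhlhe41, a repressor of the clock, rose in both hosts, by 0.96 in BALB/c and 1.89 in NSG hosts, a difference of -0.93 ± 0.22 (adjusted p = 0.0106). Neat1, the long non-coding RNA of paraspeckles, had a called change of -1.78 in BALB/c hosts and differed by -1.35 ± 0.34 (adjusted p = 0.0175), which was not called without NSG macro-met replicate 3 (adjusted p 0.0521), a muscle-rich library.

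MHC genes were also among those with the lower change in BALB/c hosts. Of 10 MHC class II genes tested, 0 had a higher and 3 a lower change in BALB/c hosts (3.53% and 1.7% of all genes), with a median of -1.50, and 2 were lower without both muscle-rich libraries and 1 without NSG tumour replicate 5. In BALB/c macro-mets 0 rose and 8 fell (19.6% and 18.2% of all genes), 5 of them called without macro-met replicate 1. In NSG macro-mets 1 rose, H2-DMb1, and 0 fell (16.9% and 13.6% of all genes). The H2-DMb1 call was lost without any 1 of 7 libraries (BALB/c macro-met replicate 2, NSG macro-met replicate 3 or 4, NSG tumour replicate 1, 2, 4 or 5). With limma voom this rise was not called either (adjusted p = 0.493). Each 0 here was also 0 at an unadjusted p under 0.05, with DESeq2 and with limma voom. Cd74 (chr18:60803848-60812652), the invariant chain that guides class II molecules, measured 430.4, 820.1, 775, 929 and 1082 CPM in BALB/c macro-mets, against 2115, 1820.4, 1688, 1039 and 1706 CPM in BALB/c tumours. In NSG hosts it measured 14.5, 17.3, 23.2, 12.7 and 17.1 CPM in macro-mets and 8.16, 13.0, 14.8, 10.5 and 6.02 CPM in tumours. Every BALB/c library was far above every NSG library, and the BALB/c groups overlapped by 1 tumour. The difference of the changes was -1.75 ± 0.44 (adjusted p = 0.0187), which limma voom did not call (adjusted p = 0.0656). Macrophage marker sums were 25.4 to 61.7 CPM in BALB/c macro-mets and 16.8 to 101 CPM in BALB/c tumours. In NSG hosts the sums were 41.6 to 71.6 CPM in macro-mets and 15.1 to 30.8 CPM in tumours. The part of macrophages in the Cd74 values was not tested. H2-DMb1, a peptide loading factor of class II, was near 0 in NSG hosts (0.314 to 1.17 CPM in macro-mets and 0.0610 to 0.387 CPM in tumours). Its difference of -2.90 ± 0.81 was not called without NSG macro-met replicate 3 or NSG tumour replicate 4 or 5 (adjusted p 0.0529 to 0.0974). Nor was it called by limma voom (adjusted p = 0.418), with genes of low counts kept in (adjusted p = 0.0532) or without both muscle-rich libraries (adjusted p = 0.0688).

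Of 19 MHC class I presentation genes, 0 had a higher (1 at an unadjusted p under 0.05, 0 with DESeq2 or limma voom) and 5 a lower change in BALB/c hosts (median -0.46), and the counts were the same without both muscle-rich libraries. In BALB/c macro-mets 1 rose (0 to 2 with 1 library left out) and 3 fell (1 without BALB/c tumour replicate 5), against 19.6% and 18.2% of all genes. In NSG macro-mets 9 rose and 2 fell (16.9% and 13.6% of all genes). Under the GC and length offset 1 rose and 7 fell in BALB/c macro-mets, and 6 rose and 6 fell in NSG macro-mets. H2-Q7 (chr17:35439155-35443773), a non-classical class I gene with near-identical neighbours whose reads may be split between copies, measured 276, 302, 268, 251 and 274 CPM in BALB/c macro-mets and 295, 263, 294, 196 and 228 CPM in BALB/c tumours. It measured 137, 127, 173, 166 and 140.2 CPM in NSG macro-mets, against 62.8, 61.6, 57.1, 66.1 and 61.1 CPM in NSG tumours. The NSG tumours were lowest, and the difference was -1.16 ± 0.22 (adjusted p = 0.00158). Tap1, a subunit of the pump that brings peptides to class I molecules, measured 109, 102, 149.6, 138 and 101 CPM in NSG macro-mets and 67.1, 58.8, 58.9, 63.7 and 63.4 CPM in NSG tumours, a rise of 0.94 ± 0.20 (adjusted p = 0.000754). In BALB/c hosts Tap1 averaged 279 ± 21.3 CPM in macro-mets and 346 ± 99.9 CPM in tumours (SD, n = 5 each), with no call, and the difference was -1.25 ± 0.28 (adjusted p = 0.00765).

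The glucocorticoid targets named in the background rose in both hosts. Fkbp5 (chr17:28399094-28517527), a co-chaperone of the glucocorticoid receptor, measured 315, 325, 311, 253 and 286 CPM in BALB/c macro-mets, against 157, 99.0, 163, 108 and 120.1 CPM in BALB/c tumours. In NSG macro-mets Fkbp5 measured 432, 369.7, 376, 433 and 403 CPM, against 189, 152, 168, 182 and 190.1 CPM in NSG tumours. Macro-mets were above tumours in both hosts with no overlap. The rise was 1.2 ± 0.12 in BALB/c (adjusted p = 2.44e-08) and 1.19 ± 0.12 in NSG hosts (adjusted p = 3.14e-08), and the difference had a 95% interval of -0.34 to 0.36.

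Tsc22d3 (chrX:140539528-140600659), also known as GILZ and a direct glucocorticoid target, measured 272, 396, 209, 181 and 217 CPM in BALB/c macro-mets and 54.8, 65.3, 43.9, 43.9 and 62.8 CPM in BALB/c tumours. It measured 359, 295, 619, 414 and 302 CPM in NSG macro-mets and 65.3, 57.8, 58.6, 56.4 and 58.4 CPM in NSG tumours. No pair overlapped. Tsc22d3 rose by 2.23 ± 0.21 in BALB/c and 2.75 ± 0.21 in NSG hosts, and the interval of the difference, -1.11 to 0.085, was too wide to call it close. Per1, a clock gene that glucocorticoids also raise, measured 118, 164, 126, 102 and 91.4 CPM in BALB/c macro-mets and 44.5, 25.3, 37.4, 60.3 and 37.3 CPM in BALB/c tumours. It measured 137, 112, 351, 213 and 187 CPM in NSG macro-mets and 56.3, 51.6, 60.3, 68.0 and 69.5 CPM in NSG tumours. No pair overlapped, and the rises were 1.55 ± 0.22 in BALB/c and 1.71 ± 0.22 in NSG hosts with an interval of the difference of -0.80 to 0.48. Per2, its partner in the clock, rose by 1.37 in BALB/c and 1.04 in NSG hosts.

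The wider list of 27 glucocorticoid-induced genes was less uniform. In BALB/c hosts 11 rose and 2 fell (19.6% and 18.2% of all genes), in NSG hosts 10 rose and 3 fell (16.9% and 13.6%), and 5 rose in both (10.2%). The difference was higher for 5 and lower for 4, and these counts ranged from 3 to 7 and from 0 to 5 when 1 library was left out, the higher count being 3 without NSG macro-met replicate 4 or NSG tumour replicate 4 and the lower count reaching 0 without BALB/c macro-met replicate 3 or NSG tumour replicate 5. Without both muscle-rich libraries it was lower for 2, and without NSG tumour replicate 3 as well for 1. Besides the 3 above, Glul and Hsd11b1 were the members that rose in both. Nr3c1, the glucocorticoid receptor, averaged 17.1 ± 5.44 CPM in BALB/c macro-mets and 24.6 ± 3.59 CPM in BALB/c tumours, and 14.9 ± 2.68 CPM in NSG macro-mets and 20.0 ± 1.93 CPM in NSG tumours (SD, n = 5 each). It was called in neither host (adjusted p = 0.0535 and 0.141).

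**Figure D5:**
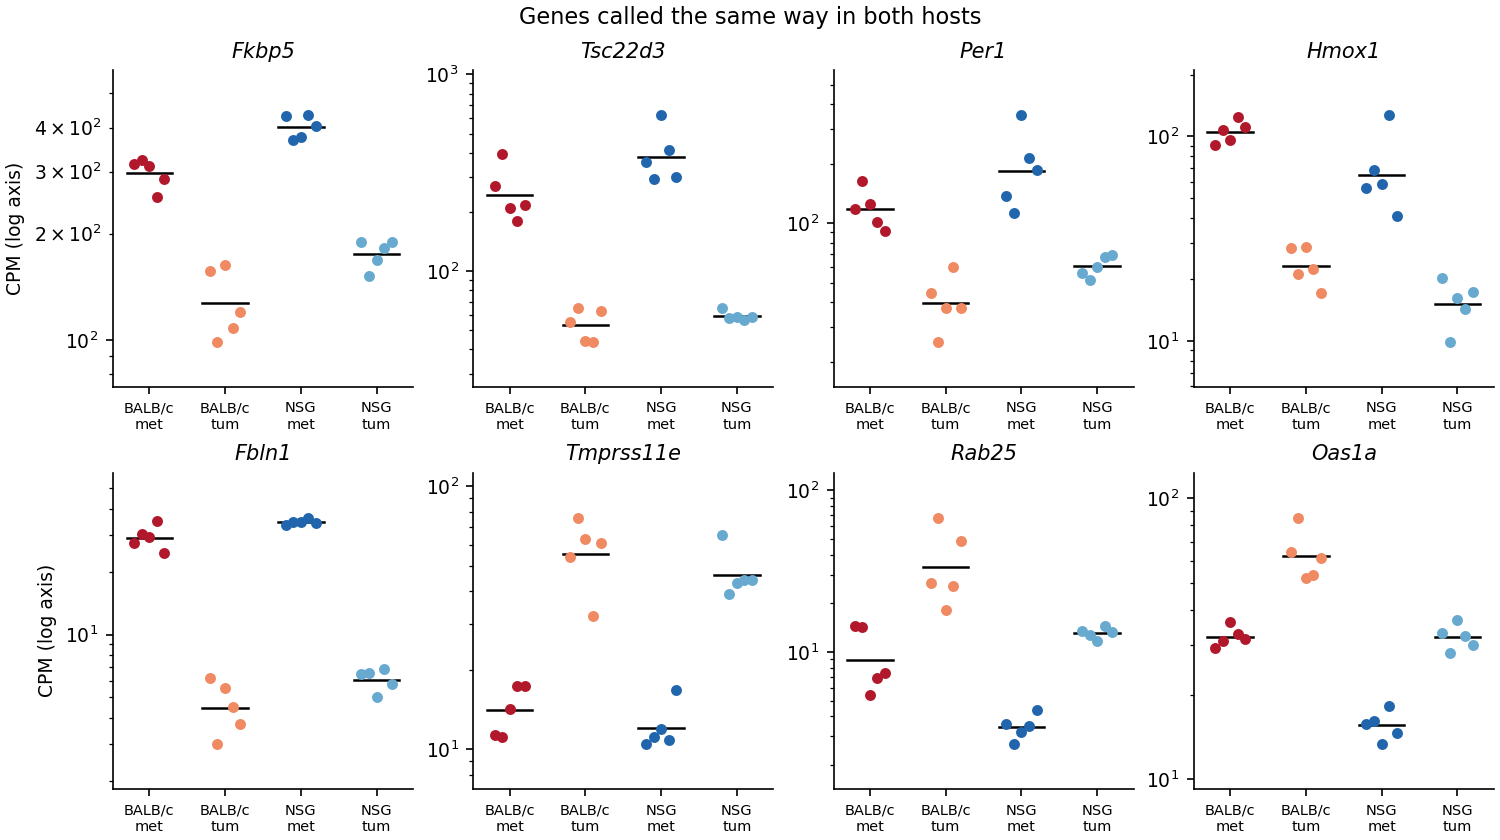
CPM on a log axis for 8 genes called the same way in both hosts, 1 point per library in replicate order, with the geometric mean of each group of 5 as a bar. Fkbp5, Tsc22d3, Per1, Hmox1 and Fbln1 are higher and Tmprss11e, Rab25 and Oas1a lower in macro-mets than in tumours of both hosts.

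Of the genes that passed the naming filters given below, the largest close rises were in genes of several functions. Fbln1 (chr15:85205949-85286535), a matrix glycoprotein, measured 27.3, 30.2, 29.3, 35.1 and 24.5 CPM in BALB/c macro-mets and 6.19, 3.00, 5.52, 4.50 and 3.72 CPM in BALB/c tumours. It measured 33.4, 34.6, 34.6, 36.2 and 34.1 CPM in NSG macro-mets and 6.51, 6.52, 5.01, 6.81 and 5.80 CPM in NSG tumours. Its rises were 2.67 ± 0.19 in BALB/c and 2.5 ± 0.19 in NSG hosts, with no overlap in either. Fibroblasts also make it. Markers of fibroblasts and smooth muscle summed to 909 to 1048 CPM in BALB/c macro-mets and 631 to 684 CPM in BALB/c tumours. The sums were 942 to 1232 CPM in NSG macro-mets and 1114 to 1463 CPM in NSG tumours. The most abundant of these markers, at a mean of 9.31 log2 CPM, had called changes of 0.45 in BALB/c and -0.75 in NSG hosts. Of the 15 markers, 6 rose and 4 fell in BALB/c hosts (19.6% and 18.2% of all genes). In NSG hosts 6 rose and 1 fell (16.9% and 13.6%). The part of fibroblasts in the rise of Fbln1 was not tested. Hmox1 (chr8:75093621-75100589), which breaks down haem and answers oxidative stress, measured 91.3, 107, 96.0, 125 and 111 CPM in BALB/c macro-mets and 28.4, 21.3, 28.7, 22.5 and 17.1 CPM in BALB/c tumours. It measured 55.7, 68.2, 58.6, 127 and 40.9 CPM in NSG macro-mets and 20.3, 9.94, 16.1, 14.4 and 17.4 CPM in NSG tumours. The rises of Hmox1 were 2.17 ± 0.21 in BALB/c and 2.16 ± 0.21 in NSG hosts, with no overlap, and the interval of the difference was -0.59 to 0.60. Red cell markers summed to 7.58 to 47.4 CPM in BALB/c macro-mets and 0.524 to 3.65 CPM in BALB/c tumours, against 11.9 to 54.3 CPM in NSG macro-mets and 1.13 to 6.10 CPM in NSG tumours. They moved with Hmox1, and their part in its rise was not tested. Of the marker lists, 6 of 14 lung epithelial, 5 of 15 endothelial and 4 of 15 fibroblast genes also rose in both hosts (10.2% of all genes).

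Gprc5b, an orphan receptor of the G protein-coupled class, rose by 2.40 in BALB/c and 2.60 in NSG hosts. In the same order of hosts, Gnao1, a G protein alpha subunit, rose by 1.90 and 2.26, and Rgl1, an exchange factor for Ral, by 1.82 and 1.77. Gstm1, a glutathione transferase, rose by 2.03 in BALB/c and 2.24 in NSG hosts. All 4 had adjusted p-values of at most 2.33e-07 in both hosts and intervals of the difference within 1 log2 unit. Of 23 hypoxia response genes, 9 rose and 1 fell in BALB/c hosts (19.6% and 18.2% of all genes), 12 rose and 1 fell in NSG hosts (16.9% and 13.6%), and 6 rose in both (10.2%). The NSG count of 12 was 7 without NSG macro-met replicate 4. Egln1, an oxygen sensor that is itself a target of hypoxia, rose by 0.88 in BALB/c and 0.96 in NSG hosts. The matrix genes Sparc and Col6a1 rose by 1.15 and 0.86 in BALB/c hosts and by 0.60 and 1.03 in NSG hosts, the NSG rise of Sparc not called under the GC and length offset (adjusted p = 0.0620). Hsd17b7, an enzyme of cholesterol synthesis, rose by 1.27 in BALB/c and 1.30 in NSG hosts.

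Of 25 epithelial junction and keratin genes, 14 fell and 0 rose in BALB/c macro-mets (18.2% and 19.6% of all genes). In NSG macro-mets 21 fell and 0 rose (13.6% and 16.9%), and 12 fell in both hosts (7.72% of all genes). Each 0 was also 0 at an unadjusted p under 0.05, with DESeq2 and with limma voom. Under the GC and length offset 20 fell in both. Tmprss11e (chr5:86705186-86745815), a membrane serine protease of epithelia, had the largest close fall of the genes that passed the naming filters. Tmprss11e measured 11.4, 11.2, 14.2, 17.5 and 17.4 CPM in BALB/c macro-mets and 53.9, 76.0, 63.3, 32.3 and 61.1 CPM in BALB/c tumours. It measured 10.5, 11.1, 12.0, 10.8 and 16.8 CPM in NSG macro-mets and 65.1, 39.0, 42.8, 44.1 and 44.1 CPM in NSG tumours. It fell by 2.00 ± 0.25 in BALB/c and by 1.94 ± 0.26 in NSG hosts with no overlap. Rab25, an epithelial trafficking GTPase, measured 14.5, 14.2, 5.38, 6.87 and 7.40 CPM in BALB/c macro-mets and 26.8, 67.6, 18.2, 25.6 and 48.5 CPM in BALB/c tumours. It measured 3.60, 2.70, 3.21, 3.48 and 4.36 CPM in NSG macro-mets and 13.6, 12.7, 11.7, 14.4 and 13.3 CPM in NSG tumours, with no overlap in either host.

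The protease St14, which works on epithelial surfaces, had called changes of -0.90 in BALB/c and -1.01 in NSG hosts. The desmosomal cadherin Dsg2 changed by -1.74 in BALB/c and -1.80 in NSG hosts, and the receptor Erbb3 by -1.65 in BALB/c and -1.83 in NSG hosts. Ttc3, a ubiquitin ligase, and Dmtf1, a Myb-like transcription factor, had called changes of -1.81 and -1.90 in BALB/c and of -1.89 and -1.71 in NSG hosts. For 3 epithelial genes, Cldn4, Cdh1 and Ovol1, the fall was called in NSG hosts alone and the host difference was called. Cldn4, a tight junction protein, averaged 609 ± 224 CPM in BALB/c macro-mets and 853 ± 286 CPM in BALB/c tumours. In NSG hosts it averaged 282 ± 38.8 CPM in macro-mets and 1162 ± 197 CPM in tumours (SD, n = 5 each), a difference of 1.56 ± 0.33 (adjusted p = 0.00507). Cdh1, the epithelial cadherin, had a called change of -0.89 in NSG hosts and a value of -0.044 in BALB/c hosts, and its host difference was not called without BALB/c macro-met replicate 1 or NSG tumour replicate 5 (adjusted p 0.0539 to 0.0544). Among the heat shock chaperones Hsph1, a co-chaperone of the Hsp70 class, had called changes of -1.58 in BALB/c and -1.73 in NSG hosts.

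Of 30 type I interferon response genes, 20 fell and 0 rose in BALB/c macro-mets (18.2% and 19.6% of all genes), 14 fell and 0 rose in NSG macro-mets (13.6% and 16.9%), and 13 fell in both (7.72%). With edgeR 0 of the 30 had a called host difference (5.23% of all genes), with 2 at an unadjusted p under 0.05, 1 with DESeq2, 0 with limma voom and 1 without BALB/c tumour replicate 3. The 0 rises were also 0 at an unadjusted p under 0.05 and with both other tools. Oas1a, an antiviral enzyme that senses double-stranded RNA, measured 29.4, 31.2, 36.2, 32.8 and 31.5 CPM in BALB/c macro-mets and 64.4, 85.3, 52.2, 53.3 and 61.6 CPM in BALB/c tumours. It measured 15.8, 16.2, 13.4, 18.3 and 14.7 CPM in NSG macro-mets and 33.1, 28.1, 36.9, 32.4 and 30.1 CPM in NSG tumours. It fell by 0.98 ± 0.17 in BALB/c and by 1.04 ± 0.17 in NSG hosts, and no pair of groups overlapped. Bst2, which tethers budding viruses to the cell, averaged 161 ± 26.8 CPM in BALB/c macro-mets and 311 ± 32.2 CPM in BALB/c tumours, and 56.0 ± 8.71 CPM in NSG macro-mets and 93.1 ± 18.3 CPM in NSG tumours (SD, n = 5 each). Its called changes were -0.95 ± 0.19 in BALB/c and -0.73 ± 0.19 in NSG hosts.

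The levels of interferon genes differed between hosts at both sites. Of the 30 genes, 24 were higher in BALB/c than in NSG macro-mets (1.88% of all genes) and 26 in BALB/c than in NSG tumours (11%), with median differences of 1.54 and 1.63 log2 units. For the 29 interferon gamma response genes the median differences were 2.61 log2 units in macro-mets and 3.86 in tumours. Of those 29 genes, 19 fell and 0 rose in BALB/c macro-mets (18.2% and 19.6% of all genes). In NSG macro-mets 11 fell and 1 rose (13.6% and 16.9%), with 0 rises without any 1 of 7 libraries. In both hosts 9 of those genes fell (7.72%). The change was lower in BALB/c hosts for 2 of them (0 to 3 with 1 library left out) and higher for 0 (2 at an unadjusted p under 0.05, 0 with DESeq2 or limma voom), and without both muscle-rich libraries it was lower for 4 and higher for 1. Gbp3, an interferon-induced GTPase, averaged 42.1 ± 14.6 CPM in BALB/c macro-mets and 115 ± 36.8 CPM in BALB/c tumours, and 3.38 ± 0.489 CPM in NSG macro-mets and 9.10 ± 1.09 CPM in NSG tumours (SD, n = 5 each). Its called changes were -1.45 in BALB/c and -1.42 in NSG hosts, the second not called by limma voom (adjusted p = 0.0925). The change was close in size while the level was more than 10-fold higher in BALB/c than in NSG hosts at each site.

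The promoters of Oas1a and Bst2 are shown because they hold the interferon-stimulated response element, which interferon-activated transcription factors are known to bind. Its letters are GAAA, any 2 bases and GAAA again, searched on both strands. They occurred in 13 of 21 type I interferon genes with a RefSeq promoter, against 3.49% of all 27025 and 3.14% of those of genes tested. They occurred in 6 of 9 that fell in both hosts and in 7 of 12 of the others. Of all shared falls with a promoter, 4.13% held them. Capitals mark the matches.
Oas1a, chr5:120907476-120907775, minus strand: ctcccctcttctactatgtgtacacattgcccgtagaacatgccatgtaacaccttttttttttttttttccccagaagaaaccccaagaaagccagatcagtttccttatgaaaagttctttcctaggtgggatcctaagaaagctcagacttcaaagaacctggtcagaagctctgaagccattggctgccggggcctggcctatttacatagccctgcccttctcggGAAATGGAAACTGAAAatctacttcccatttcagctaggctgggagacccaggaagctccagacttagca
Bst2, chr8:71537423-71537722, minus strand: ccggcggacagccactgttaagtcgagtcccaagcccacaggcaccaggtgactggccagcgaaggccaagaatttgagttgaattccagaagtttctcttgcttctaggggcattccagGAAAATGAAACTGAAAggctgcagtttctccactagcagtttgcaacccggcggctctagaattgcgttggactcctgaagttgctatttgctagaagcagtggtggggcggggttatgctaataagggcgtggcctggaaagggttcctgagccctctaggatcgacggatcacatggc
In each promoter 2 overlapping matches form 1 stretch of capitals.

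Fas (chr19:34290666-34327772), the death receptor that the series' title pairs with glucocorticoids, measured 10.1, 9.71, 11.1, 13.8 and 13.6 CPM in BALB/c macro-mets and 15.5, 13.3, 17.0, 18.4 and 26.1 CPM in BALB/c tumours. It measured 7.13, 6.30, 2.95, 3.61 and 4.61 CPM in NSG macro-mets and 9.50, 5.25, 6.42, 7.04 and 6.35 CPM in NSG tumours. Both pairs of groups overlapped. The change of Fas was -0.63 ± 0.22 in BALB/c (adjusted p = 0.0248) and -0.49 ± 0.22 in NSG hosts (adjusted p = 0.10), so only the BALB/c change passed. The BALB/c call was lost without BALB/c macro-met replicate 1 or 2 or BALB/c tumour replicate 5 (adjusted p 0.0524 to 0.115) and under the GC and length offset (adjusted p = 0.476). The difference between hosts was -0.14 ± 0.32 and was not called (adjusted p = 0.847). Its 95% interval was -0.79 to 0.50, so a host difference of a size within it is not excluded. Of 16 death receptor genes, 1 had a higher and 1 a lower change in BALB/c hosts (3.53% and 1.7% of all genes), the higher one not called without any 1 of 16 libraries. Against 19.6% and 18.2% of all genes, 4 rose and 3 fell in BALB/c hosts (1 without BALB/c macro-met replicate 1 or 2 or BALB/c tumour replicate 5), and against 16.9% and 13.6%, 4 rose and 0 fell in NSG hosts (0 to 3 with 1 library left out, 4 at an unadjusted p under 0.05, 2 with DESeq2, 1 with limma voom). Tnfsf10, the ligand TRAIL, was the gene with the lower change. It measured 4.98, 7.36, 9.40, 12.4 and 9.31 CPM in BALB/c macro-mets and 39.2, 41.9, 20.4, 15.9 and 46.1 CPM in BALB/c tumours, and 2.78, 3.89, 1.66, 2.35 and 3.17 CPM in NSG macro-mets and 2.60, 3.42, 3.01, 2.06 and 2.08 CPM in NSG tumours. The BALB/c tumours were highest without overlap, the BALB/c macro-mets lay above all NSG libraries, and the difference was -1.99 ± 0.49 (adjusted p = 0.0159), not called by limma voom (adjusted p = 0.118). Bid, which links death receptors to mitochondria, rose by 0.77 in BALB/c and 0.62 in NSG hosts.

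The counts of the other lists read against 3.53% of all genes with a higher and 1.7% with a lower change in BALB/c hosts. Of 16 glycolysis enzymes 1 had a higher and 1 a lower change in BALB/c hosts, of 34 oxidative phosphorylation subunits 1 and 0, of 29 cholesterol and fatty acid synthesis genes 2 and 0, and of 21 heat shock chaperones 2 and 0. Of 24 mesenchymal genes 4 were higher and 0 lower (7 and 0 without both muscle-rich libraries), and of 29 collagen and matrix genes 3 were higher and 1 lower (3 and 0 without them). Of 18 clock genes 2 were higher and 1 lower, and of 23 nuclear and abundant non-coding RNAs 0 were higher and 3 lower, with 0 lower without both muscle-rich libraries or under the GC and length offset. Of 40 cytosolic ribosomal protein genes and 26 replication-dependent histones, 0 were called in either direction with edgeR, and at an unadjusted p under 0.05 there were 2 higher and 2 lower ribosomal genes and 4 higher and 2 lower histones. DESeq2 called 0 ribosomal genes and 2 histones, and limma voom 0 of both. The other 0 counts in this paragraph were at most 2 at an unadjusted p under 0.05 and at most 1 with DESeq2 or limma voom. Of 23 acute phase, complement and coagulation genes, 3 had a higher and 2 a lower change in BALB/c hosts, with a median of -0.84 log2 units. Of these, 7 rose and 2 fell in BALB/c hosts (19.6% and 18.2% of all genes), and 12 rose and 3 fell in NSG hosts (16.9% and 13.6%). The serum amyloid genes Saa1, Saa2 and Saa3, named after their values were seen, rose in both hosts, Saa3 by 2.51 in BALB/c and 3.24 in NSG hosts. With any 1 library left out the counts of host-dependent genes in this paragraph moved by at most 3, the 3 non-coding RNAs becoming 0 without NSG macro-met replicate 3. Without both muscle-rich libraries the higher counts were 0 for glycolysis and oxidative phosphorylation and 1 for cholesterol synthesis and heat shock, and under the GC and length offset 5 collagen and matrix genes were higher. Each of the 9 marker lists had at most 2 host-dependent genes in either direction. Of 5 red cell genes 2 were higher, and of 13 skeletal muscle genes 2 were lower. Median differences were -3.53 for skeletal muscle, -1.96 for adipocyte, -1.87 for neutrophil, -1.78 for macrophage and -1.33 for fibroblast markers (-0.06 over all genes). Without both muscle-rich libraries they were, in that order, 0.72, 0.42, -1.13, -0.83 and 0.42. Those of the other lists were 2.54 for red cell, 0.59 for T, B and NK cell, -0.16 for lung epithelial and -0.54 for endothelial markers.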

How the data were processed

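RNA of sorted 4T1-tdTomato cells was sequenced in 30 libraries. Raw counts per gene, as deposited by the authors, were the values tested, and the TPM values deposited by the authors served for an alternative. Per the submitters' processing notes, the tools were Trimmomatic 0.36 and STAR 2.5.2b and the builds GRCm38 and mm10. The counting tool, its strand setting and the annotation are not given in the sources used here, so overlapping and antisense genes cannot be told apart. Libraries held 29832098 to 65621525 counts, and 174 genes with an ID and no symbol stayed in the fit.

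Genes were filtered with filterByExpr, scaled by TMM and fitted with edgeR 4.0.16 (robust quasi-likelihood, R 4.3.3) as 6 group means over all 30 libraries. The 10 early lung libraries, disseminated cells, entered the filter, the scaling and the estimate of the spread but no comparison. Of 49315 genes, 17774 were tested, with a median biological coefficient of variation of 0.269. P-values were adjusted over all tested genes at 0.05. On simulated counts for 17245 genes, the interaction test recovered 38.8% of differences of 1 log2 unit and 59.6% of differences of 2 log2 units, with 7 false calls. Coordinates are from GENCODE M21 (GRCm38) and promoters from RefSeq (GRCm38.p6). Figures were drawn with Python 3.11.15 and matplotlib 3.10.9.

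The genes named are Fas, Nr3c1, Fkbp5, Tsc22d3 and Per1. Added to them are the 6 largest positive and negative called host differences, the 6 largest opposite changes and the 6 largest close shared rises and falls. Close shared changes were ranked by the smaller of the 2 host changes. The naming filters for these were a mean of at least 3 log2 CPM and a call in at least 1 host. The symbol also had to belong to 1 ID, be no predicted, clone or pseudogene name, and be in no marker list. From each list up to 4 host-dependent and up to 2 close shared members were also named. Some genes that this rule picks are not reported here. The comparison, the 24 programme lists and the 9 marker lists were chosen with earlier results of these data known. The alternatives were DESeq2 1.42.0, limma 3.58.1 voom, other size factors, no filter on low counts, log2(TPM + 1) and log2(TPM + 0.1) values, the 20 libraries alone, an offset for GC content and length, other thresholds and leaving out each library. Fitting without the 2 muscle-rich libraries, or without these and NSG tumour replicate 3, was added after seeing the data.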

Additional observations from a re-analysis of the deposited data

Results flagged for a closer look

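Of 316 combinations of a printed gene and a group of 5, 18 had a library far from the other 4, and chance gives about 1 in 20. In BALB/c macro-mets, replicate 1 was apart at 113.6 CPM for Bst2, 272.6 CPM for Gadd45g and 79.7 CPM for Gnao1, and replicate 4 at 47.2 CPM for Hsph1 and 56.8 CPM for Prc1. In BALB/c tumours, replicate 3 was apart at 103 CPM for Gpnmb and replicate 5 at 11.9 CPM for Per2. In NSG macro-mets, replicate 3 was apart at 64.0 CPM for Col3a1, replicate 4 at 86.3 CPM for Aurkb and 25.0 CPM for Gpnmb, and replicate 5 at 16.8 CPM for Tmprss11e. In NSG tumours, replicate 1 was apart at 65.1 CPM for Tmprss11e and 65.3 CPM for Tsc22d3, replicate 2 at 116 CPM for Hsph1 and 1308 CPM for Ier3, replicate 3 at 12.9 CPM for Gpnmb, and replicate 5 at 66.4 CPM for Cdkn1a and 266 CPM for Fosl1.

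The BALB/c minus NSG difference of the macro-met minus tumour log2 change was called by edgeR's quasi-likelihood test for 48 of the genes printed. Among cell division genes the differences were 2.40 for Fam83d, 1.91 for Aurkb, 1.65 for Prc1, 1.28 for Cdk1, 1.23 for Mad2l1, 1.22 for Tyms, 1.17 for Mcm10 and 1.14 for Cdc45. Among signal response genes and secreted factors they were 2.77 for Csf3, 2.49 for Stc1, 2.31 for Lif, 2.29 for Cyr61, 2.28 for Rasd1, 2.22 for Gadd45g, 2.04 for Cdkn1a, 1.95 for Dusp5, 1.78 for Fosl1, 1.66 for Ier3, 1.65 for Tnfaip3, 1.23 for Sgk1, 1.22 for Myc, 1.11 for Nfkbie and 1.02 for Errfi1. Among matrix, protease, junction and metabolic genes they were 2.12 for Tnc, 1.83 for Mmp9, 1.56 for Cldn4, 1.35 for Plau, 1.26 for Vegfa, 1.11 for Plaur, 1.05 for Psat1, 0.94 for Acaca, 0.87 for Mmp14, 0.86 for Atf4 and 0.84 for Cdh1. Of the negative differences, those of immune and antigen presentation genes were -3.42 for Nos2, -2.90 for H2-DMb1, -2.53 for C4b, -2.24 for Sectm1b, -1.99 for Tnfsf10, -1.75 for Cd74, -1.25 for Tap1 and -1.16 for H2-Q7, and the others were -2.82 for Gpnmb, -2.77 for Col3a1, -2.19 for Dio2, -1.35 for Neat1, -1.08 for Aldoc and -0.93 for Bhlhe41.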

How the results depend on the processing

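The 929 host-dependent genes were 1612 with DESeq2, 743 of them lower in BALB/c, and 483 where the difference also had to be at least 1 log2 unit. Genes called in opposite directions, 82, were 129 with DESeq2 and 52 with genes of low counts kept in. Close shared changes, 2058 with a margin of 1 log2 unit, were 673 with a margin of 0.5. Leaving out 1 library gave 684 to 1106 host-dependent genes, 510 to 770 higher and 174 to 336 lower (302 with all libraries). The lower count was 190 without the 3 libraries with the most muscle marker RNA, and 174 without NSG tumour replicate 5, 175 without NSG macro-met replicate 3 and 197 without BALB/c macro-met replicate 1. Leaving out 1 library also gave 5570 to 7075 BALB/c calls, 4521 to 5880 NSG calls, 2639 to 3160 shared changes, 1592 to 1906 close ones and 64 to 104 opposite ones. Of the 929 genes, 918 were called in the same direction with DESeq2, 895 with relative log expression factors, 865 under the GC and length offset, 786 with the 20 libraries alone, 779 with limma voom and 650 without both muscle-rich libraries. On log2(TPM + 0.1) values the BALB/c calls were 4330 higher and 2366 lower, against 3483 and 3243 with edgeR. Across genes, GC content had a Spearman rho of 0.33 with the BALB/c change, 0.31 with the NSG change and 0.067 with their difference, a description over genes that share libraries.

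The differences that changed sign were uncalled and near 0. That of Fas was 0.023 under the GC and length offset and -0.25 to 0.051 with 1 library left out, and that of Nr3c1 was 0.045 and -0.22 to 0.031. That of Fkbp5 was -0.012 with relative log expression factors or DESeq2, -0.0098 with genes of low counts kept in, -0.045 without both muscle-rich libraries (-0.017 without NSG tumour replicate 3 as well) and -0.070 to 0.13 with 1 library left out. That of Per1 was 0.35 without both muscle-rich libraries (0.37 without that tumour as well) and -0.30 to 0.18 with 1 library left out. Over 177 gene values and all alternatives, leaving out 1 library gave the same call 3448 times and lost it 81 times, and the other alternatives gave it 1696 times and lost it 65 times. The causes were not tested.

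No paired analysis was possible because the labels give no replicate number that the groups share. Host and tumour age cannot be told apart, nor can organ, route and cell number. With 5 libraries a group, the simulated recovery leaves many differences of 1 log2 unit uncalled.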
